A study of Mus musculus with 7 samples.

Results

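Lcn2, Ltf and Trf, the genes of lipocalin 2, lactoferrin and transferrin, were followed cell by cell in mammary tumours and in cells sorted from blood of PyMT mice, which carry the polyoma middle T transgene and develop mammary tumours. The members were the rows of these 3 genes among the 11753 mouse genes measured, and all 3 were found. Cells were profiled by CEL-seq, which tags each molecule with a barcode and reads the 3′ end of its RNA, so that a value is an estimated number of transcripts in a well. Wells with at least 500 transcripts were used. They were 20 BEpos wells (labelled circulating tumour cells, positive for E-cadherin, the epithelial adhesion protein), 60 BEneg wells (the same label, E-cadherin negative), 69 TEneg wells (solid tumour, E-cadherin negative) and 71 TEpos wells (solid tumour, E-cadherin positive), 220 of 312 in all. The endings pos and neg replace the p and n of the authors' sort names. BEpos was sorted in library 1 only, and the other populations in each of 4 libraries. A separate experiment (i) held tumour cells labelled positive for E-cadherin, with 95 and 65 wells used in its libraries 1 and 2. All groups came from PyMT mice, and the labels give no promoter of the transgene, no ages, no number of animals and no tie of a library to an animal.

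The sums of transcripts per library ran between 11134 and 25316 in BEneg, 17136 and 109548 in TEneg and 27350 and 71733 in TEpos, with 75009 in BEpos. Median transcripts per well were 3803 in BEpos, 819 in BEneg, 1603 in TEneg and 2064 in TEpos, and 3083 and 883 in libraries 1 and 2 of experiment (i). The label of the wells sorted from blood was set against marker genes. S100a8 and S100a9, a calprotectin gene pair abundant in neutrophils, took 1.78% of BEpos transcripts and 6.72 ± 2.47% of BEneg transcripts (SD, n = 4 libraries), against 0.227 ± 0.129% in TEneg and 0.214 ± 0.0846% in TEpos. The 11 measured luminal and milk genes took 0.048% in BEpos, 0.299 ± 0.111% in BEneg, 1.52 ± 0.440% in TEneg and 3.15 ± 0.774% in TEpos. The data of BEpos and BEneg thus went against a label of tumour cells, and these wells are called here by their sort names. Libraries 1 and 2 of experiment (i) also differed. Measured luminal and milk genes took 1.85% and 0.672% of their transcripts. Monocyte and macrophage genes took 0.0425% and 1.29%, and basal and myoepithelial genes 0.0133% and 0.367%. Library 2 thus held more RNA of other cell types, and its wells are not taken as 1 cell type. One TEneg well of library 2 held 61227 transcripts, more than all other TEneg wells of its library together, and results that rest on it are given with and without it.

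All 3 proteins bind iron or its carriers. Lipocalin 2 traps the siderophores with which bacteria collect iron, lactoferrin binds iron in milk and in the granules of neutrophils, and transferrin carries iron in serum and, in rodents, is also made by the lactating mammary gland. Mammary epithelium and neutrophils can therefore both be a source of Lcn2 and Ltf RNA. Neutrophils make their granule proteins mainly while they mature in bone marrow, before they enter the blood.

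In the mm10 genome the genes lie apart. Lcn2 spans chr2:32384633-32388252 on the minus strand, Ltf spans chr9:111019271-111042767 on the plus strand, and Trf spans chr9:103204001-103230444 on the minus strand (GENCODE vM21). A second annotated gene, Gm20425, overlaps Trf on the same strand and is not listed in the tables, so reads of either could have been counted as Trf. The set of RefSeq promoters used here held 2 of the 3 members on GRCm38.p6, Lcn2 and Ltf, though RefSeq lists Trf as a gene. The 250 bases before each RefSeq start are shown because the levels of the members are compared throughout. They come from chr2:32387740-32387989 on the minus strand and from chr9:111019042-111019291 on the plus strand. Both RefSeq starts lie inside the GENCODE spans, so that distances to the GENCODE starts would differ. Capitals mark ATAAA, as found in TATA boxes, and GGTCA, a site bound by nuclear receptors. These motifs were picked after the sequences were read.
Lcn2: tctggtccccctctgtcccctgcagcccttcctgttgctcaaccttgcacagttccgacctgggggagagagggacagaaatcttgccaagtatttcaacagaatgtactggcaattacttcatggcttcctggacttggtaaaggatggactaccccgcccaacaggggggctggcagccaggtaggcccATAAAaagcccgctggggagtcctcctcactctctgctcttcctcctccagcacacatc
Ltf: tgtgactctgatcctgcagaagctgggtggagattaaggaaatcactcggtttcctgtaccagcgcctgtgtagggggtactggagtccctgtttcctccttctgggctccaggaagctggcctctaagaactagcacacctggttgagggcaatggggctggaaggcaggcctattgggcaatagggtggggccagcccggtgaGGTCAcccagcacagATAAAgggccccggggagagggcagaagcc

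ATAAA stood 59 to 55 bases before the annotated start of Lcn2 and 30 to 26 bases before that of Ltf, and 37.3% of 32851 RefSeq promoters hold it within the same distance on either strand. GGTCA stood 45 to 41 bases before the start of Ltf, where it does not overlap ATAAA, and 35.2% of promoters hold it. TTCNNNGAA, the pattern bound by STAT5 in milk genes, was also searched on both strands. It is held by 7.02% of promoters, and its letters were not in these windows.

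Lcn2 was highest in tumour wells and lowest in BEpos. It had 6.40 transcripts per 10000 in BEpos library 1 (exact 95% Poisson interval 4.72 to 8.48, which covers counting error only). In libraries 1 to 4 it had 25.3, 45.03, 25.3 and 32.3 per 10000 in BEneg, 62.7, 146, 69.9 and 60.7 in TEneg, and 112, 131, 119 and 137 in TEpos. The 4 BEneg libraries lay below every TEneg and TEpos library, while TEneg library 2 lay above every TEpos library and the other TEneg libraries below them. The 2 libraries of experiment (i) had 94.03 and 55.3 per 10000.

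Trf had the same order of populations. BEpos library 1 had 2.0 per 10000 (1.12 to 3.30). In libraries 1 to 4 Trf had 7.76, 15.8, 7.60 and 16.2 per 10000 in BEneg, 30.9, 63.5, 41.3 and 50.8 in TEneg, and 58.01, 67.8, 60.2 and 68.01 in TEpos. No BEneg library reached a tumour library, and TEneg and TEpos overlapped through TEneg library 2. Experiment (i) had 53.8 and 30.9 per 10000.

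Ltf was scarcer and far less even. It had 3 transcripts in BEpos, or 0.400 per 10000 (0.0825 to 1.17). BEneg had 1.63, 3.56, 2.53 and 2.69 per 10000 in libraries 1 to 4, which rest on 4, 9, 3 and 3 transcripts. TEneg had 5.92, 20.8, 6.61 and 2.92 per 10000, and TEpos 23.2, 9.90, 3.32 and 13.2. The ranges of BEneg and of both tumour populations overlapped, and within TEpos the highest library was several times the lowest. Experiment (i) had 362 Ltf transcripts in library 1, or 8.30 per 10000, and 1 transcript in library 2, or 0.144 per 10000 (0.00364 to 0.800).

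**Figure D1:**
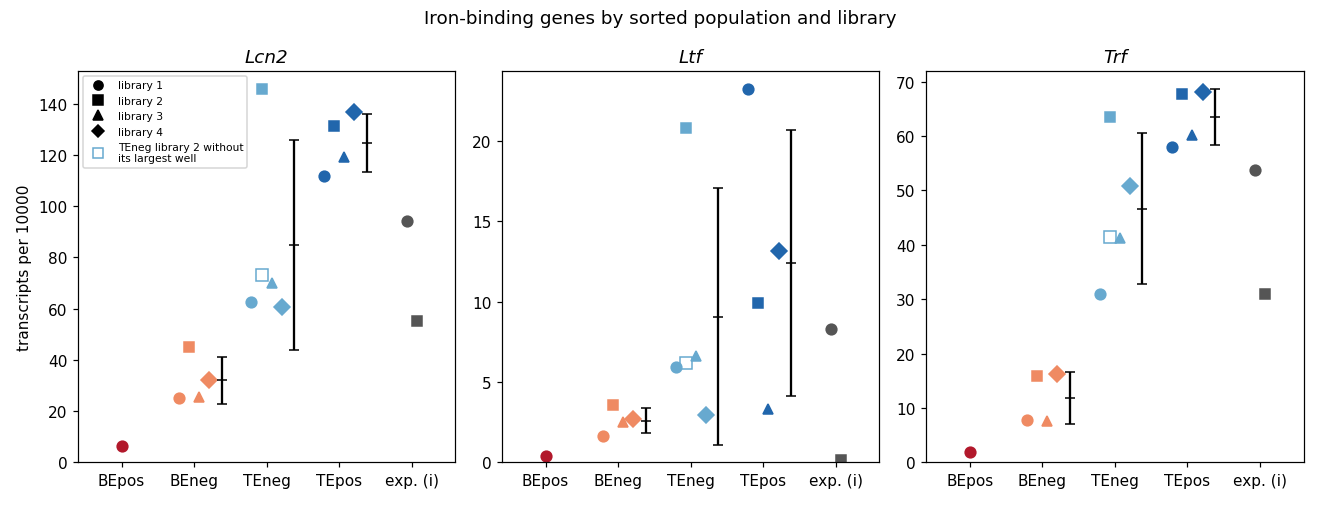
Transcripts per 10000 of Lcn2, Ltf and Trf (vertical axes, starting at 0) in each library of BEpos, BEneg, TEneg, TEpos and experiment (i), with the mean and SD of the 4 libraries as bars and an open square for TEneg library 2 without its largest well. Lcn2 and Trf of BEneg lie below all TEneg and TEpos libraries, while Ltf ranges overlap.

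Between blood and tumour, all 3 genes were lower in BEneg. Across the 490 genes tested with edgeR's quasi-likelihood test, 41% changed in BEneg against TEneg and 17.1% fell, and 3 of 3 members fell. Their median log2 fold change was −1.76, beside −0.05 for all genes tested. Lcn2 averaged 32.003 ± 9.29 per 10000 in BEneg and 84.8 ± 40.9 in TEneg (SD, n = 4 each), or −1.19 in log2 fold change (SE 0.23, adjusted p = 0.000101, lower in 4 of 4 libraries). Trf averaged 11.8 ± 4.797 in BEneg and 46.6 ± 13.9 in TEneg (−1.79, SE 0.22, adjusted p = 1.71e-07, 4 of 4). Ltf averaged 2.60 ± 0.788 in BEneg and 9.06 ± 7.99 in TEneg (−1.76, SE 0.53, adjusted p = 0.00775, 4 of 4). All 4 BEneg sums lay below all 4 TEneg sums for 2 of the 3 members, Lcn2 and Trf, as they did for 14.7% of genes tested.

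Set against TEpos, which shares the BEneg sums with that comparison, 48.2% of the genes changed in BEneg and 21% fell, again with 3 of 3 members among them and a median of −2.03, beside −0.08 for all genes. On the log2 scale Lcn2 fell by 1.69 (SE 0.23, adjusted p = 4.62e-07), with 125 ± 11.4 per 10000 in TEpos. Trf fell by 2.14 (SE 0.22, adjusted p = 3.71e-09), with 63.5 ± 5.16 in TEpos. Ltf fell by 2.03 (SE 0.51, adjusted p = 0.0017), with 12.4 ± 8.28 in TEpos. The non-overlap of sums held for Lcn2 and Trf, as for 25.9% of genes tested. The milk genes Csn3 (kappa-casein) and Wfdc18 (a small secreted inhibitor-like protein) fell by 2.24 and 2.34 in BEneg against TEneg, beside 1.19 for Lcn2.

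Between the tumour populations no member passed the test, in a comparison where 6.33% of genes changed. The log2 fold change in TEneg against TEpos was −0.50 for Lcn2 (SE 0.20, adjusted p = 0.160, lower in 3 of 4 libraries), −0.35 for Trf (SE 0.17, adjusted p = 0.277, 4 of 4) and −0.27 for Ltf (SE 0.38, adjusted p = 0.739, 2 of 4). The median of the 3 was −0.35, beside −0.01 for all genes. All 4 TEneg sums lay below all 4 TEpos sums for 0 of the 3, and for 6.73% of genes tested. Csn3 fell by 0.81 (adjusted p = 0.0267) and Wfdc18 by 1.13 (adjusted p = 0.00444) in the same comparison. Among marker genes of other cell types, Acta2, the smooth muscle actin of myoepithelial cells, rose by 3.78 (adjusted p = 2.46e-07) and Apoe, abundant in macrophages, by 1.86 (adjusted p = 0.000261), where 4.69% of genes rose, and their part in the values of the members was not tested.

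A single well weighed heavily on the TEneg values. The large TEneg well of library 2 held 1242 Lcn2, 495 Trf and 198 Ltf transcripts, which were 77.8%, 71.1% and 86.8% of all those in its sum. Its Lcn2 value is also the least certain one, since 254 of the 256 molecular barcodes had been seen and the estimate climbs steeply there. Trf and Ltf of this well had used 219 and 138 barcodes.

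Without that well, Lcn2 and Trf were lower in TEneg than in TEpos past the threshold. Lcn2 averaged 66.4 ± 5.88 per 10000 in TEneg (log2 fold change −0.72, adjusted p = 0.00258) and Trf 40.9 ± 7.97 (−0.48, adjusted p = 0.0477). Ltf averaged 5.44 ± 1.71 (−0.94, adjusted p = 0.0516). The fall of Lcn2 in BEneg against TEneg was kept (−0.86, adjusted p = 0.000383), whereas that of Ltf was lost (−0.91, adjusted p = 0.128). With the number of barcodes in place of the estimate, which bounds the weight of such a well, Lcn2 also passed in TEneg against TEpos (−0.70, adjusted p = 0.00772).

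Ltf was carried by few wells. Of 255 Ltf transcripts in the 71 TEpos wells, 180 lay in 3 wells, with 122, 38 and 20 transcripts in libraries 1, 2 and 4, and no other TEpos well had more than 6. In TEneg, the large well held 198 of 267, and no other well had more than 10. Ltf was found in 3 of 20 BEpos wells, 18 of 60 BEneg wells, 34 of 69 TEneg wells and 44 of 71 TEpos wells, and no BEneg well had more than 2 transcripts and no BEpos well more than 1. Thinned to 500 transcripts per well, it was found in 15.3 ± 7.10% of BEneg wells, 20.8 ± 11.2% of TEneg wells and 26.9 ± 7.42% of TEpos wells (SD, n = 4), against 29.3 ± 10.4%, 45.2 ± 25.6% and 61.5 ± 10.7% before thinning.

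Over the tumour wells with fewer than 20 Ltf transcripts, which leaves out these 4, TEneg had 5.44 ± 1.71 and TEpos 4.48 ± 1.42 Ltf transcripts per 10000 (SD, n = 4). The 4 wells were picked by their Ltf after the values were seen, so that a lower tumour level without them is built in, and no test of Ltf was made on this setting.

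**Figure D2:**
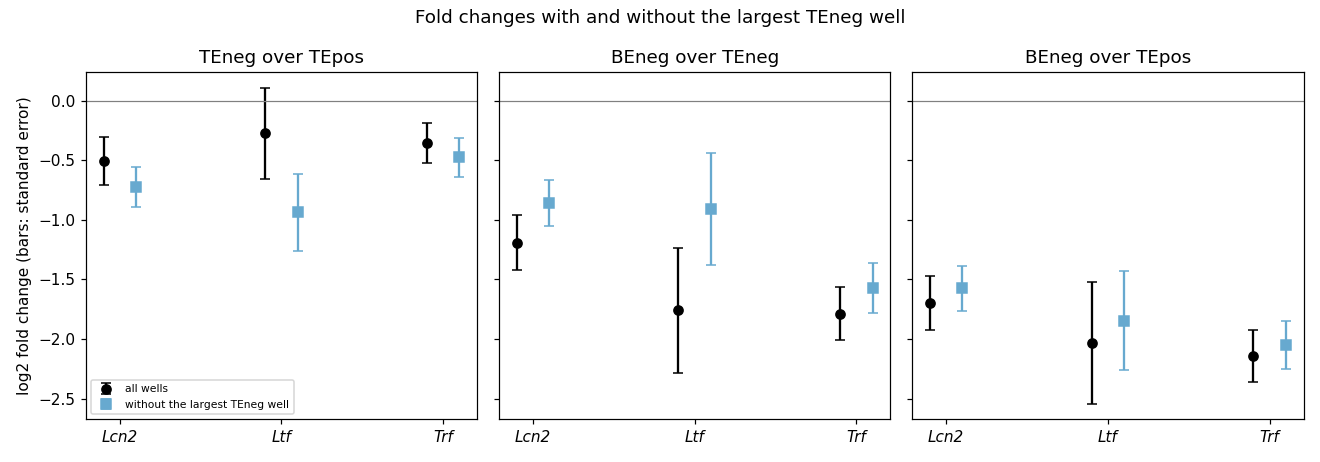
Log2 fold change (vertical axes, bars are standard errors) of each member in TEneg over TEpos, BEneg over TEneg and BEneg over TEpos, with all wells and without the largest TEneg well. All 3 members are lower in BEneg under both settings, and Ltf in BEneg over TEneg moves to −0.91 without that well.

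The wells rich in Ltf differed in their other transcripts. The 3 such TEpos wells had 743, 547 and 218 luminal and milk transcripts per 10000, against a median of 264 in TEpos, and 35.9, 23.7 and 58.7 neutrophil transcripts per 10000, against a TEpos median of 23.5. Genes of neutrophil granules other than the members gave 1, 0 and 1 transcripts in them. Lcn2 in these wells was 106, 111 and 59.4 per 10000, below the TEpos median of 112. The large TEneg well had 203 Lcn2 transcripts per 10000, the highest of any TEneg well and against a TEneg median of 63.2, with 278 luminal and milk transcripts against a median of 125.8 and 5.66 neutrophil transcripts against 25.8. The wells were chosen by their Ltf, and nothing was tested over them.

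Experiment (i) gave the same uneven picture of Ltf in 1 of its libraries. In its library 1, 13 of 95 wells had 10 or more Ltf transcripts, up to 53, and held 83.1% of the library's Ltf, 32 wells had 1 to 9 and 50 wells had 0. Median luminal and milk transcripts were 265, 184 and 183 per 10000 in these 3 classes of wells. Median neutrophil transcripts were 0, 2.59 and 4.22, over the 6 of 12 neutrophil genes that are listed in that library. The median of S100a8 and S100a9 together was 0 in each class, so the pair itself showed no such order. Median Lcn2 was 145, 114 and 83.3 per 10000 and median Trf 68.8, 53.5 and 49.4. In library 2, 64 of 65 wells had no Ltf transcript, at a median depth of 883 transcripts per well. That library also held 1.29% monocyte and macrophage transcripts.

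**Figure D3:**
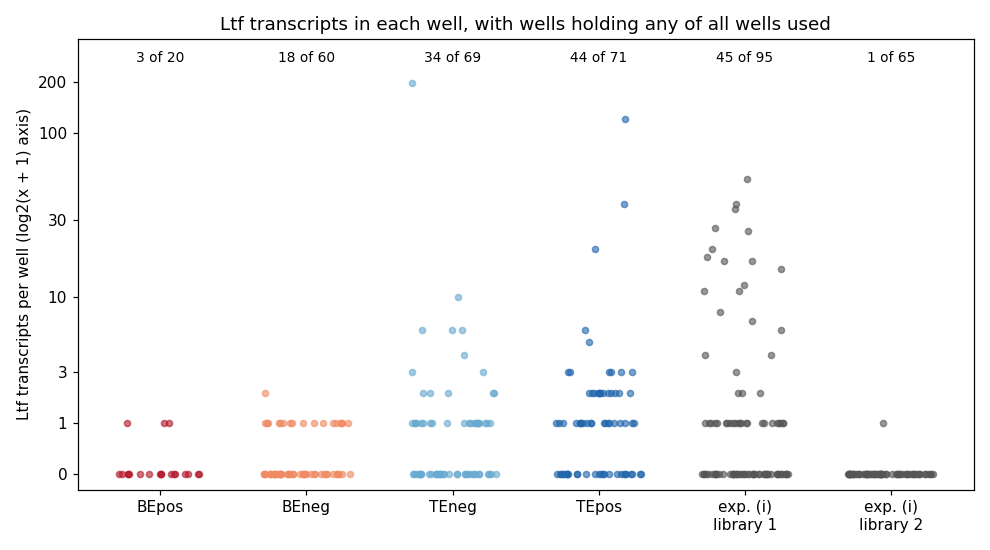
Ltf transcripts in each well used (vertical axis, log2(x + 1) scale) for BEpos, BEneg, TEneg, TEpos and libraries 1 and 2 of experiment (i), with the number of wells holding any Ltf above each column. Most wells have 0 to 2 transcripts. Among BEpos, BEneg, TEneg and TEpos, 3 TEpos wells and 1 TEneg well stand above 10, and in library 1 of experiment (i) 13 wells have 10 or more.

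To ask which source each gene followed within a population, wells were ranked by their share of 12 neutrophil genes and by their share of the luminal and milk genes, within each library. Spearman's rho was computed after thinning every well to 500 transcripts and is given as a description. In BEneg, Lcn2 followed the neutrophil genes, with a mean rho of 0.637 over the 4 libraries (0.522 to 0.735), and the luminal genes less, at 0.237 (−0.02 to 0.329). In the 20 BEpos wells the values were 0.567 and 0.248. In TEneg, Lcn2 followed the luminal genes, at 0.476 (0.310 to 0.610), and in TEpos likewise at 0.326 (0.192 to 0.551). Its rho with the neutrophil genes was 0.178 in TEneg and −0.09 in TEpos, and was of either sign among libraries.

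Sums over wells are given by library. In the BEneg wells richer than the library's median in neutrophil transcripts, Lcn2 had 55.2, 72.9, 55.6 and 52.7 per 10000 in libraries 1 to 4, against 5.43, 27.8, 6.83 and 18.5 in the poorer wells. It was higher in the richer wells in 4 of 4 libraries (59.1 ± 9.27 against 14.6 ± 10.5). Split by luminal transcripts, Lcn2 in BEneg had 43.1 ± 8.57 per 10000 in the richer wells and 22.2 ± 16.5 in the poorer wells, and was higher in 3 of 4 libraries. In TEpos the luminal split gave 143 ± 9.88 against 107 ± 13.6 and in TEneg 105 ± 48.3 against 52.6 ± 8.70, each higher in 4 of 4 libraries. Without the 4 wells rich in Ltf, among them the large TEneg well, these were 148 ± 7.66 against 109 ± 17.4 in TEpos and 84.6 ± 10.5 against 51.8 ± 7.84 in TEneg, again in 4 of 4. The neutrophil split gave 132 ± 7.38 against 120 ± 15.9 in TEpos (higher in 4 of 4 libraries) and 76.3 ± 8.22 against 84.9 ± 55.6 in TEneg (2 of 4). Without the 4 wells it gave 142 ± 7.50 against 116 ± 23.8 in TEpos (4 of 4) and 76.3 ± 8.22 against 58.7 ± 10.7 in TEneg (3 of 4), so that Lcn2 was then higher in the neutrophil-rich tumour wells too.

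BEneg wells fell on either side of an empty stretch of neutrophil share, which was noticed after the values were seen. The 41 wells above 150 neutrophil transcripts per 10000 ran between 245 and 3043, and the 19 wells below it between 9.02 and 100.02. Lcn2 had 54.5 per 10000 in the upper wells, with 215 transcripts in 39 of 41 wells, and 7.59 per 10000 in the lower wells, with 25 transcripts in 12 of 19. The lower wells were the deeper ones, with a median of 710 transcripts per well in the upper and 1510 in the lower, and carried more monocyte and macrophage transcripts, at 103 in the upper and 253 per 10000 in the lower. On unthinned values pooled over libraries, Lcn2 had a rho of 0.306 with the neutrophil genes and −0.02 with the luminal genes in the upper wells. In the lower wells it had 0.198 with the neutrophil genes and 0.658 with the luminal genes. These values mix libraries and depths and are not comparable with the thinned rho within libraries.

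Trf behaved otherwise. In the same upper and lower BEneg wells it had 13.7 and 9.71 per 10000, and in the wells richer and poorer in neutrophil transcripts 10.1 ± 3.18 against 13.02 ± 5.99, higher in the richer wells in 1 of 4 libraries. Its mean rho in BEneg was −0.04 with the neutrophil genes and 0.107 with the luminal genes. On unthinned values pooled over libraries, Trf had a rho of −0.27 with the neutrophil genes and 0.0658 with the luminal genes in the upper wells. In the lower wells it had 0.606 and 0.477. In TEneg its mean rho was 0.199 with the neutrophil genes and 0.130 with the luminal genes, each positive in 4 of 4 libraries. In TEpos it followed neither list (−0.08 and 0.00222), while in the libraries of experiment (i) it followed the luminal genes at 0.320 and 0.465.

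Ltf was sparse in BEneg, with 19 transcripts in 60 wells. It had 4.30 ± 1.87 per 10000 in the BEneg wells richer in neutrophil transcripts and 1.51 ± 1.30 in the poorer wells, higher in 4 of 4 libraries, while its thinned mean rho in BEneg was −0.02 with the neutrophil genes and 0.279 with the luminal genes. In TEneg its mean rho was −0.09 with the neutrophil genes and −0.10 with the luminal genes, each positive in 2 of 4 libraries. In TEpos it was 0.209 with the neutrophil genes and 0.371 with the luminal genes, each positive in 4 of 4.

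**Figure D4:**
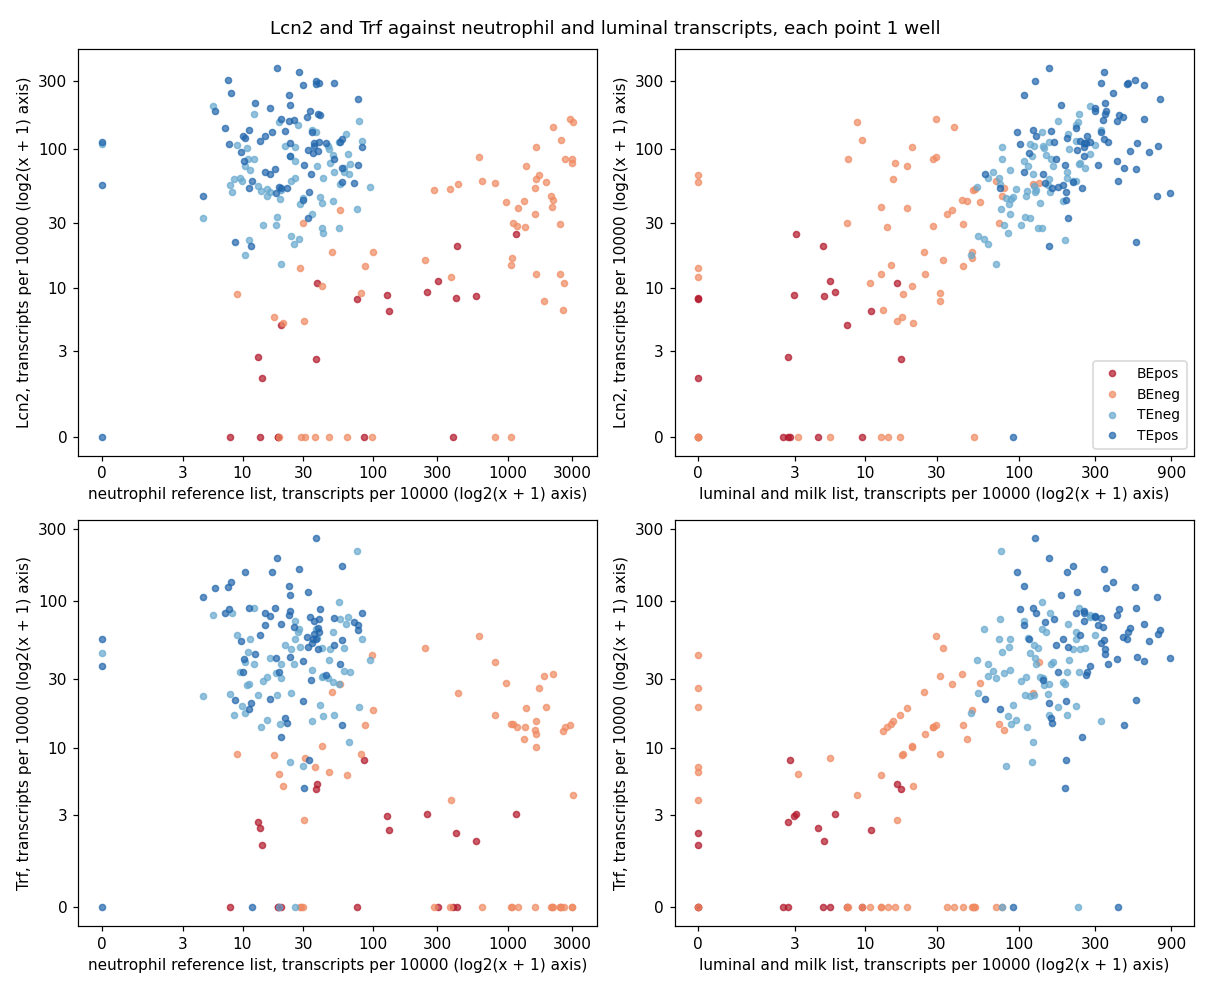
Lcn2 (top) and Trf (bottom) per 10000 in each of the 220 wells, against neutrophil transcripts (left) and luminal and milk transcripts (right) per 10000, all on log2(x + 1) axes, coloured by population. Lcn2 of BEneg is high mainly in wells with many neutrophil transcripts, whereas TEneg and TEpos wells have much Lcn2 and Trf at few neutrophil transcripts.

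**Figure D5:**
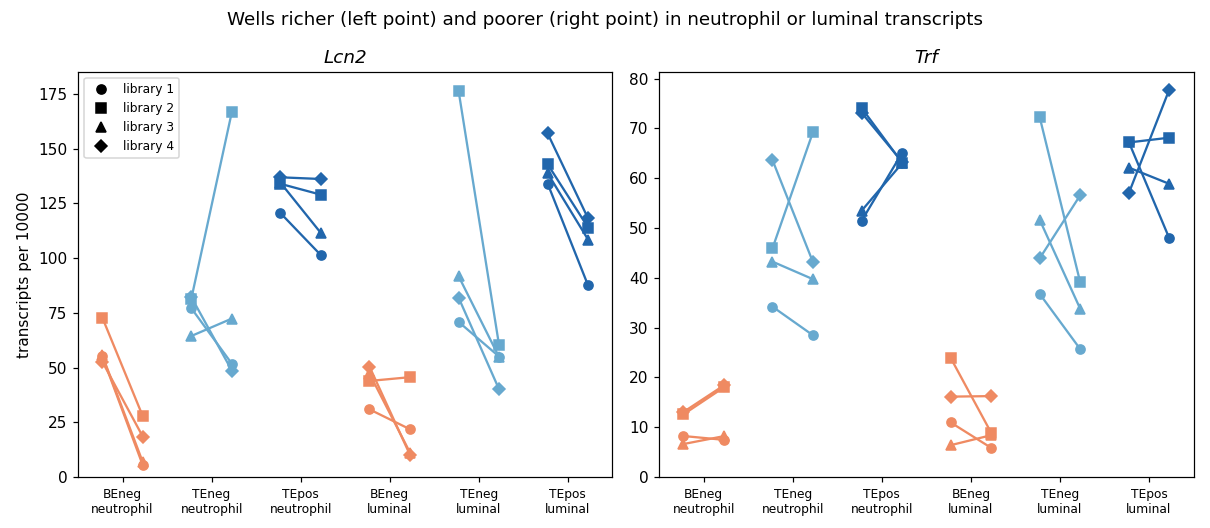
Lcn2 (left) and Trf (right) in transcripts per 10000 in the wells richer (left point of each pair) and poorer (right point) in neutrophil or luminal transcripts, joined by library, in BEneg, TEneg and TEpos. Lcn2 is higher in the neutrophil-rich wells of BEneg and TEpos and in the luminal-rich wells of TEneg and TEpos in all 4 libraries. The neutrophil split of TEpos is slight in library 2 (134 against 129) and library 4 (137 against 136). In TEneg library 2 the well of 61227 transcripts is among the luminal-rich and the neutrophil-poor wells.

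Tumour Lcn2 was set against the neutrophil RNA in the same wells. S100a8 and S100a9 were found in tumour wells too, S100a8 in 43.8 ± 11.4% of TEneg and 24.95 ± 16.6% of TEpos wells after thinning, so RNA of other cells cannot be left out of account. At the ratio of Lcn2 to S100a8 and S100a9 counted in BEneg of the same library, the neutrophil transcripts of TEneg wells would come with 13.3 Lcn2 transcripts, of the 2061 counted, and those of TEpos wells with 18.1, of 2338. These are 0.647% and 0.772%. Without the large TEneg well the arithmetic gave 12.1 of 819 Lcn2 transcripts in TEneg, or 1.47%, 4.57 of 478 Trf transcripts, or 0.955%, and 0.9753 of 69 Ltf transcripts, or 1.41%. With all wells it gave 5.01 of 973 Trf transcripts in TEneg and 6.82 of 1198 in TEpos, and 1.08 of 267 Ltf transcripts in TEneg and 1.46 of 255 in TEpos.

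Experiment (i) held few transcripts of the neutrophil pair, with 19 of S100a8 and 14 of S100a9 among 435924 in library 1. Only 6 of the 12 neutrophil genes are listed in library 1. Over these 6 it held 152 transcripts, of which 76 were of G0s2, a lipolysis inhibitor, and 34 of Cxcr2, a chemokine receptor. In 40 of 95 wells there were none. In the 76 wells of that library without S100a8 or S100a9, Lcn2 was found in 75 and had 88.8 per 10000. Trf was found in 75 and had 50.8, and Ltf was found in 38 and had 8.40. The levels over all 95 wells were 94.03, 53.8 and 8.30. In the 40 wells with none of the 6 listed neutrophil genes, Lcn2 had 107, Trf 56.02 and Ltf 17.3 per 10000. In the 61 wells of library 2 without the pair, Lcn2 was found in 49, Trf in 39 and Ltf in 1.

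The reverse arithmetic was applied to blood. At the ratio of Lcn2 to Csn3 and Wfdc18 counted in TEneg, the milk transcripts of BEneg wells would come with 120 of the 242 Lcn2 transcripts counted there, or 49.5%, and at the TEpos ratio with 94.4, or 39.02%, below the counted number in 4 of 4 libraries. For Trf the numbers were 63.6 and 48.3 of 86, or 73.95% and 56.2%, also below it in 4 of 4. For Ltf they were 13.7 and 8.11 of 19, and 8.65 at the TEneg ratio without the large well. In BEpos, the 48 Lcn2 transcripts compare with 39.3 at the BEneg ratio to the neutrophil pair and with 15.8 and 9.19 at the TEneg and TEpos ratios to the milk pair. Which cells the milk transcripts of blood wells came from was not tested.

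The ratios were compared by an exact two-sided sign-flip permutation test over the 4 libraries, which cannot give a p below 0.125, for 18 comparisons with adjusted values of 0.173 or more. The log2 ratio of Lcn2 to the milk pair, with 1 transcript added to each, differed by 1.13 ± 0.542 (SD) in BEneg minus TEneg and by 1.55 ± 0.768 in BEneg minus TEpos, higher in BEneg in 4 of 4 libraries (exact p = 0.125 each, adjusted p = 0.173). For Trf the differences were 0.50 ± 0.525 and 1.08 ± 0.692 (4 of 4 each, exact p = 0.125). The log2 ratio of Lcn2 to the neutrophil pair differed by −6.32 ± 1.58 and −6.92 ± 0.617. S100a8 and S100a9 themselves rose by 5.46 and 5.28 in BEneg against TEneg and by 5.52 and 5.28 against TEpos. Much of this difference is thus that of the pair, and it does not tell which source Lcn2 follows. Counted directly, there were 2.86 ± 0.613 Lcn2 transcripts per Trf transcript in BEneg, 1.80 ± 0.473 in TEneg and 1.96 ± 0.0391 in TEpos. The ratio was narrow in TEpos (1.92 to 2.01) and wider in BEneg (2.0 to 3.33).

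Within library 1, the only one with both blood populations, BEpos was below BEneg for all 3 members, and for Ltf the interval spans 1. The ratio of BEpos to BEneg was 0.253 for Lcn2 (exact 95% interval 0.170 to 0.375), 0.258 for Trf (0.122 to 0.536) and 0.245 for Ltf (0.0359 to 1.45). S100a8 had a ratio of 0.179, S100a9 of 0.236, Csn3 of 0.20 and Wfdc18 of 0.477. The intervals cover counting error only, and with 1 library per population there is no test.

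A gene found in a well need not have been made by its cell. The milk gene Csn3 is set beside the members in blood, and the source of its transcripts there was not tested. After thinning, Lcn2 was found in 66.05 ± 7.42% of BEneg wells, Trf in 43.4 ± 17.5% and Csn3 in 32.4 ± 20.4%, at a median depth of 819 transcripts. Before thinning the values were 84.5 ± 13.7%, 68.5 ± 14.8% and 50.3 ± 13.03%. In TEneg and TEpos wells, Lcn2 was found in 95.9 ± 4.75% and 95.98 ± 5.07% after thinning, and Trf in 79.6 ± 14.6% and 82.9 ± 15.8%. Of 7 BEneg wells without any luminal or milk transcript, 4 held Lcn2, with 12 transcripts, 6 held Trf and 0 held Ltf.

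Genes of neutrophil granules, with which Ltf and Lcn2 are made during maturation, were present in BEneg but uneven. Of 16 listed, 11 were measured and 2 passed the filter on low counts. They were Cybb, a subunit of the phagocyte oxidase, and Pglyrp1, a peptidoglycan-binding granule protein. Cybb had 7.88 per 10000 in BEneg and 0.932 in TEneg, and Pglyrp1 had 6.89 and 0.804. Both reached the test through BEneg, so their rise there (3.99 and 3.46 against TEneg) was largely fixed in advance. The shares of all genes that rose, 23.9% against TEneg and 27.1% against TEpos, do not correct for this. Some untested genes are named after their values were seen. Ngp, a granule protein, had 46 transcripts in BEneg and 1 in TEneg (ratio 115, 19.6 to 4641) and Mmp8, neutrophil collagenase, 55 and 2 (ratio 68.8, 18.2 to 582). Chi3l3, of the same list, had 68 and 0, at least 56.7-fold higher against 3 transcripts over the TEneg sums. Of the 46 Ngp transcripts, 32 lay in 1 well of library 2, which also held 5 Camp (the cathelicidin gene) and 14 Mmp8 transcripts, all 5 of the Camp transcripts in BEneg. That well had the most Lcn2 transcripts of any BEneg well, 35, and 1 Ltf transcript. Per 10000 it had 155, below the 165 of another well of the same library. Across BEneg wells the mean rho of Lcn2 with the granule list was 0.0215 (−0.13 to 0.209, unthinned). This list is mixed. The top Chi3l3 well held 32 of 68 Chi3l3 transcripts with 2 of Lcn2, and the top Cybb well 10 of 60 with 0. These wells had only 30.4 and 31.02 neutrophil transcripts per 10000, whereas the top Pglyrp1 well held 11 Lcn2 transcripts. The rho therefore does not show whether Lcn2 goes with neutrophil granule RNA.

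Some milk and epithelial genes were among those whose sums were most like each member. Over the 12 sums of BEneg, TEneg and TEpos, the 5 closest to Lcn2 by Pearson's r of log2 values were 1600029D21Rik (0.960), Trf (0.956), Csn3 (0.954), the epithelial adhesion gene Epcam (0.944) and Stac2 (0.941). For Trf they were Csn3 (0.983), Cd81 (0.981), the tight junction gene Cldn3 (0.970), Lcn2 and Emid1 (0.953). For Ltf the values were lower, with 1600029D21Rik (0.842), H3f3b (0.819), Aldoc (0.812), Wfdc18 (0.812) and Clu, the clusterin gene (0.811). The 12 sums share libraries and the contrast between blood and tumour.

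Across single TEpos wells, where that contrast is absent, Lcn2 and Trf were each other's closest gene among 1633 ranked. Their mean rho was 0.534 (0.282 to 0.828 over the 4 libraries, 0.301 after thinning), and it was 0.492 and 0.369 in the 2 libraries of experiment (i), which had no part in the ranking. Csn3 came second for Lcn2, at 0.466 in TEpos and at 0.486 and 0.359 in experiment (i). Rps10, Snx3 and H3f3b, the next for Lcn2, had between −0.09 and 0.0705 there. For Ltf the closest were Igfbp5, which binds insulin-like growth factors (0.457 in TEpos, 0.286 and 0.107 in experiment (i)), Arf3, Pgam1, Tmsb4x and Tpm4, and for Trf after Lcn2 they were Bcl3, Rabac1, Ttc3 and Fuca2. In libraries 1 and 2 of experiment (i) Arf3, Pgam1, Tmsb4x and Tpm4 had a rho of −0.14 to 0.194 with Ltf, and Bcl3, Rabac1, Ttc3 and Fuca2 had −0.06 to 0.285 with Trf. The wells of a library share its preparation, and a share of each well's depth enters both values.

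Of 30 other genes of iron handling, 20 were measured and 3 passed the filter on low counts. In BEneg against TEneg 1 rose and 1 fell, where 23.9% of all genes rose and 17.1% fell, so the count says nothing of the list as a whole. Ftl1, the ferritin light chain that stores iron, rose in BEneg by 1.54 against TEneg (SE 0.18, adjusted p = 8.65e-08) and by 1.65 against TEpos. Cp, ceruloplasmin, which oxidises iron for loading onto transferrin, fell by 2.19 against TEneg (SE 0.40, adjusted p = 5.27e-05) and by 1.92 against TEpos. Pcbp1, an iron chaperone, did not pass (−0.11 and −0.10), and 0 of the 3 passed in TEneg against TEpos. The median log2 fold change of the 3 was −0.11 in BEneg against TEneg.

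Untested genes of this list are given as counts, chosen after their values were seen. Slc11a1, the iron transporter of phagosomes, had 17 transcripts in BEneg and 0 in TEneg, at least 14.2-fold higher against 3 transcripts over the TEneg sums. Slc40a1, the iron exporter ferroportin, had 24 in BEneg, 1 in TEneg (ratio 60.02, 9.79 to 2468) and 12 in TEpos (ratio 5.18, 2.49 to 11.4). Tfrc, the receptor that takes up transferrin, had 0 transcripts in BEpos, 2 in BEneg, 7 in TEneg and 16 in TEpos. Its ratio of BEneg to TEneg was 0.714 (0.0724 to 3.75) and to TEpos 0.324 (0.0361 to 1.38), and both intervals span 1.

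Receptors of the members were scarce. Of 8 listed, 6 were measured and 0 were tested. Slc22a17, a receptor of lipocalin 2, had 1 transcript in BEpos, 1 in BEneg, 13 in TEneg and 9 in TEpos. Lrp1, a receptor of lactoferrin, had 6, 15, 6 and 2. Over the unequal sums, the ratio of BEneg to TEneg was 0.192 for Slc22a17 (0.00453 to 1.28) and 6.25 for Lrp1 (2.29 to 19.7). Against TEpos the ratios were 0.288 (0.00657 to 2.08) and 19.4 (4.52 to 175). At these depths no difference between populations was tested.

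Most tested genes of acute phase and innate defence, the group to which lipocalin 2 belongs by function, rose in blood. Of 22 listed, 20 were measured and 8 tested. In BEneg 7 rose against TEneg (where 23.9% of all genes rose) and against TEpos (27.1%), with a median log2 fold change of 2.48 and 3.03. Lyz2, Wfdc17 and Pglyrp1 had 1.94, 1.42 and 0.804 per 10000 in TEneg and reached the test through BEneg. The filter on low counts thus favoured genes high in blood, and the count and medians say nothing of the group as a whole. Those 7 were Lyz1 and Lyz2 (the lysozymes), Wfdc17, Pglyrp1, Slpi (an inhibitor of neutrophil elastase), Lrg1 and Cebpb. Lrg1 rose by 1.34 and Cebpb by 1.28 against TEneg. Marker genes of leukocytes rose with them, 8 of 8 tested, as did 5 of 6 of monocytes and macrophages against TEneg, and their part in this was not tested. Most of these markers were scarce in tumour sums, with Rac2 at 0.441 and Ccr2 at 0 per 10000 in TEneg. Such markers reached the test through BEneg, so their rise there was largely fixed in advance. Lyz2 is itself on the monocyte and macrophage list and Pglyrp1 on the granule list. In TEneg against TEpos, 0 of the 8 passed. Lyz1 and Lyz2 are near copies whose reads may have been split.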

How the data were processed

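Single cells were sorted into Trizol and made into CEL-seq libraries, per the labels' protocols. Reads were mapped with BWA 0.6.2-r126 to mm10, per the submitters' processing notes. For read counting, no tool is named in the sources used here. The deposited tables hold estimated counts of transcripts, without normalization. Every value equals 256 × ln(256/(256 − k)), where k is a whole number of 4-base molecular barcodes (to within 3.13e-13). Wells were tied to libraries and populations through the deposited barcode table. Each well was meant for 1 cell, so no doublet caller was run. Of the 96 cell barcodes, 72 were used in all 4 libraries by design and 24 in library 1 only.

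Spike-ins were left out. Transcripts of wells with at least 500 were summed per library and population (at least 3 wells) and rounded. Sums of BEneg, TEneg and TEpos were fitted together in edgeR 4.0.16 (TMM, filterByExpr, quasi-likelihood test, library as a block, Benjamini-Hochberg adjustment) under R 4.3.3, with limma 3.58.1 and DESeq2 1.42.0 as alternatives. Genes with an adjusted p under 0.05 are called changed. The fit was also run on simulated data, and the outcome of that run is not given here. The pairing comes from the barcode table, which places the populations in the same libraries. Deviations of the same library correlated at a mean of 0.166 (BEneg with TEneg), 0.203 (BEneg with TEpos) and 0.186 (TEneg with TEpos). No label ties a library to an animal, so the spread behind each p-value is that among these 4 libraries and may be technical. Every pair of sums of 1 population differed beyond sampling noise (chi-square per degree of freedom 1.87 to 4.35).

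Wells were thinned to 500 transcripts with a fixed seed. Intervals cover counting error only. Members and lists were chosen with earlier results of these data known. Named genes are the members, the milk and neutrophil pairs, list genes called in a comparison or at 0, and the 5 genes most like each member over sums and over TEpos wells in which at least 20% held them. Alternatives changed the scaling, the filter, the block, the test, the depth needed and the wells or libraries used. Python 3.11.15 with scipy 1.17.1 was used for the wells.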

Additional observations from a re-analysis of the deposited data

Results flagged for a closer look

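Lcn2 in TEneg library 2, at 146 per 10000, stood apart from the other TEneg libraries (60.7 to 69.9), with a gap of 0.892 of the group's range. Chance flags about 1 in 20 groups of this kind. The library contains the well of 61227 transcripts, and without it the library had 72.98 per 10000.

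Library 3 of experiment (i), in which 1 of 96 wells reached 500 transcripts and which entered no comparison, held 23 Lcn2 transcripts among 14046 over all wells, or 16.5 per 10000, above the 3 that a count of 0 allows. It held 3 Trf transcripts, and Ltf is not listed in it.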

How the results depend on the processing

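The falls of Lcn2 and Trf in BEneg kept their direction and their side of the threshold under all 15 alternatives each, with log2 fold changes of −1.89 to −0.67 and −2.33 to −1.49 against TEneg and of −2.47 to −1.40 and −2.98 to −1.95 against TEpos. In TEneg against TEpos, Lcn2 passed under 7 of 15: without the filter on low counts (−0.89), with means of wells in limma (−0.77), with observed barcodes (−0.70), without the large TEneg well (−0.72), with tumour wells of under 2 leukocyte transcripts (−1.11, adjusted p = 0.000189), without the 4 wells rich in Ltf (−0.77) and without replicate 2. Its adjusted p ran between 2.33e-06 and 0.654. Trf passed there without the filter (−0.73) and without the large well (−0.48). Ltf in BEneg against TEneg lost its call with DESeq2 (−1.52, adjusted p = 0.0588), limma (−0.53), at least 1500 transcripts per well (−2.56), without the large well (−0.91) and without library 2 (adjusted p = 0.206). In BEneg against TEpos it was lost with at least 1500 transcripts (−2.68) and without library 1 (adjusted p = 0.0586). In TEneg against TEpos its sign turned without libraries 1 (0.42) and 4 (0.0988). With tumour wells of under 2 leukocyte transcripts Ltf did not pass the filter and has no value. The cause of these changes was not tested beyond the wells named.

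Leaving out each library in turn gave −0.79 to −0.31 for Lcn2 and −1.18 to 0.42 for Ltf in TEneg against TEpos, −2.03 to −1.12 for Ltf in BEneg against TEneg and −2.34 to −1.29 in BEneg against TEpos. The log2 ratio of Ltf to the neutrophil pair in TEneg minus TEpos ran between −1.26 and 0.21, reversed without libraries 1 (0.21) and 4 (0.17). The other ratios kept their direction.

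The genes called in TEneg against TEpos numbered 31, and 99 without the filter, 17 with at least 1000 transcripts, 55 without the large well, 50 without the wells rich in Ltf, 19 to 42 without single libraries and 20 with no replicate block. The block changed no call of a member. In BEneg against TEneg the 201 calls became 461 without the filter, 315 in limma, 111 with at least 1000 and 123 with at least 1500 transcripts. In BEneg against TEpos the 236 became 581, 374, 125 and 133, and 152 with tumour wells of under 2 leukocyte transcripts. Scaling by total transcripts moved the median of all genes to −0.49 in BEneg against TEneg, with 99 genes higher and 187 lower in BEneg against 117 and 84, and to −0.48 in BEneg against TEpos (110 and 188 against 133 and 103). Lcn2, Ltf and Trf then stood at −1.63, −2.23 and −2.24 against TEneg. Unthinned shares of wells were 84.5% for Lcn2 in BEneg, 29.3%, 45.2% and 61.5% for Ltf in BEneg, TEneg and TEpos, and 68.5% and 96.4% for Trf in BEneg and TEneg. Wells of under 1000 transcripts, most of BEneg, limit what can be said of Ltf in blood.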
